A study of Homo sapiens with 26 samples.

Results

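The genes studied here encode the heterogeneous nuclear ribonucleoproteins (hnRNPs) and the serine/arginine-rich splicing factors (SRSFs), chosen as every gene whose symbol begins with HNRNP or is SRSF followed by a number. They came to 36 of the 19478 coding sequences listed in each of 4 count tables, 24 hnRNP genes and 12 SRSF genes. HNRNPC is not among the listed coding sequences and was not analysed here. Each value is a number of ribosome footprints, the RNA fragments left by RNase I digestion under a ribosome, counted on 1 coding sequence. A footprint count reflects both how much mRNA is present and how heavily it is translated, and the libraries cannot tell the 2 apart.

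The libraries came from HEK293T and HEK293FT, both lines of human embryonic kidney origin, and from K562, a chronic myeloid leukaemia line. All cells were lysed with cycloheximide, an inhibitor of elongation, and the libraries differed in how ribosomal RNA had been removed before sequencing. HEK293T had 2 libraries each without depletion, with Ribo-Zero Gold, with RiboCop and with NEBNext, from fragments of 15 to 35 nt. K562 was profiled in a pair of experiments. In the kit experiment, on fragments of 20 to 34 nt, there were 2 libraries each without depletion, with FastSelect, with riboPools and with riboPools eluted cold, and 4 single Ribo-Zero Plus libraries, of which 1 had no additions and the others had oligos, formaldehyde or both. The size experiment paired 1 undepleted with 1 NEBNext library at 20 to 34 nt, and again at 20 to 60 nt. NEBNext is also named in a label of both undepleted libraries there, which were placed by their titles. HEK293FT had 1 undepleted library and 1 depleted with custom oligos, from fragments of 15 to 35 nt. NEBNext and Ribo-Zero Plus digest rRNA with a nuclease, whereas the bead kits pull rRNA out with probes and FastSelect blocks its reverse transcription. The labels do not say whether replicates came from separate cultures, so each p-value measures only the spread between these libraries, which may be technical.

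Proteins of both groups bind pre-mRNA and shape which exons are kept. SR proteins carry RNA recognition motifs and a tail rich in arginine-serine repeats, and many bind exonic enhancers and promote inclusion of the exon. hnRNPs coat nascent transcripts and often repress exons, and several also act in mRNA export, stability and translation. Most members have close paralogs, and many control their own mRNA through alternative exons that lead to its decay.

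Library totals ran from 46858 counts (undepleted K562, 20 to 60 nt) to 5795774 counts (K562, riboPools eluted cold), and the undepleted libraries used to compare the lines had 120019 and 153462 counts in HEK293T, 900763 in HEK293FT, and 1135460 and 1031889 in the K562 kit experiment. Of the marker lists, 10 erythroid and leukaemia genes of K562 summed to between 12027 and 12731 CPM, counts scaled to the library total, in the 4 undepleted K562 libraries and to between 189 and 333 CPM in the HEK293T and HEK293FT libraries, where 8 or 9 of the 10 were at 0. The 6 HEK293 markers were lower as a sum in K562 (894 to 982 CPM, with 4 or 5 genes at 0) than in the HEK lines (1163 to 1844 CPM, with 0 or 1 at 0). Where 5 were at 0, the K562 sum is that of 1 gene. Not every marker was lower in K562, as VIM was higher there than in HEK293FT (log2 0.19, SE 0.07), while 4 of the list were lower. Markers of other cells, a list of 8 led in K562 by the leukocyte gene PTPRC and the epithelial gene EPCAM, summed to between 235 and 319 CPM in K562, with 3 to 5 genes at 0, and to between 25.0 and 39.1 CPM in the HEK lines, with 5 to 7 at 0, and their part in the results was not tested. Together the 36 genes took 2.29% and 2.17% of all counts in the undepleted HEK293T libraries, 2.09% in HEK293FT and 1.87% and 1.86% in the K562 kit experiment. The hnRNP genes made up most of this in every library, and the SRSF genes held between 0.319% and 0.351% in undepleted HEK293T and K562 libraries and 0.448% in HEK293FT.

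Several members have near copies elsewhere in the genome, which limits what a footprint of about 28 nt can be assigned to. HNRNPA1 lies at chr12:54280193-54287087 (GRCh38, plus strand, 10 exons) and encodes a shuttling repressor of splicing. Its intronless relative HNRNPA1L2, at chr13:52642425-52643796 (plus strand, 1 exon), has a coding sequence of the same 963 nt with 15 differences, an identity of 98.4%. The pair of stretches below was chosen to show the 60 nt with the most differences, coding positions 589 to 648, and capitals mark the bases that differ.
HNRNPA1: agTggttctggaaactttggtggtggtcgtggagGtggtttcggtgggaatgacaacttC
HNRNPA1L2: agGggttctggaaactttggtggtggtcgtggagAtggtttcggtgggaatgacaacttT
Even here a footprint can fall between differences. Of the 936 windows of 28 nt in the HNRNPA1 coding sequence, 28 occur in no other annotated gene, and 585 also occur in HNRNPA1L2.

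The C-like genes, a cluster of HNRNPC relatives on chromosome 1, are the other such case. HNRNPCL3 (chr1:13060869-13062229, plus strand) and HNRNPCL4 (chr1:13164586-13165467, minus strand) differ at 1 of 882 coding bases, while HNRNPCL1 (chr1:12847408-12848725, minus strand) differs from HNRNPCL3 at 40 and HNRNPCL2 (chr1:13115496-13116854, minus strand) at 42. Coding positions 313 to 372 span the single difference. Capitals mark it in the first pair of lines, and in the other lines they mark bases that differ from HNRNPCL3.
HNRNPCL3: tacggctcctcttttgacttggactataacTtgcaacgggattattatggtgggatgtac
HNRNPCL4: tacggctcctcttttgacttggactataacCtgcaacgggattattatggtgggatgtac
HNRNPCL1: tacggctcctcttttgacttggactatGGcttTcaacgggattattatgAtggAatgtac
HNRNPCL2: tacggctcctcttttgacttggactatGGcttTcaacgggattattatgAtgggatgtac
HNRNPCL3 and HNRNPCL4 had 28 windows of their own out of 855 each. HNRNPC, which has no counts of its own here, shares 141 of the 855 windows of HNRNPCL1. It shares 98 with HNRNPCL2 and 103 each with HNRNPCL3 and HNRNPCL4. Whether footprints of HNRNPC were counted on the C-like genes was not tested. HNRNPA3 was 6.04% its own, HNRNPA1L2 23.0%, HNRNPCL1 24.9%, HNRNPCL2 30.4%, HNRNPK 29.97%, SRSF6 52.3%, HNRNPL 60.2%, SRSF3 62.6% and SRSF10 63.8%, and the rest of each occurs in other annotated genes, pseudogenes included. The other members were above 80%. How the authors' counting treated reads that match several genes is not given in the sources used here, so the counts of HNRNPA1, HNRNPA1L2, HNRNPA3, HNRNPK and the C-like genes are uncertain. The ratio of HNRNPA1L2 to HNRNPA1 counts lay between 0.305 and 0.557 in all 26 libraries, with a median of 0.445.

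**Figure D1:**
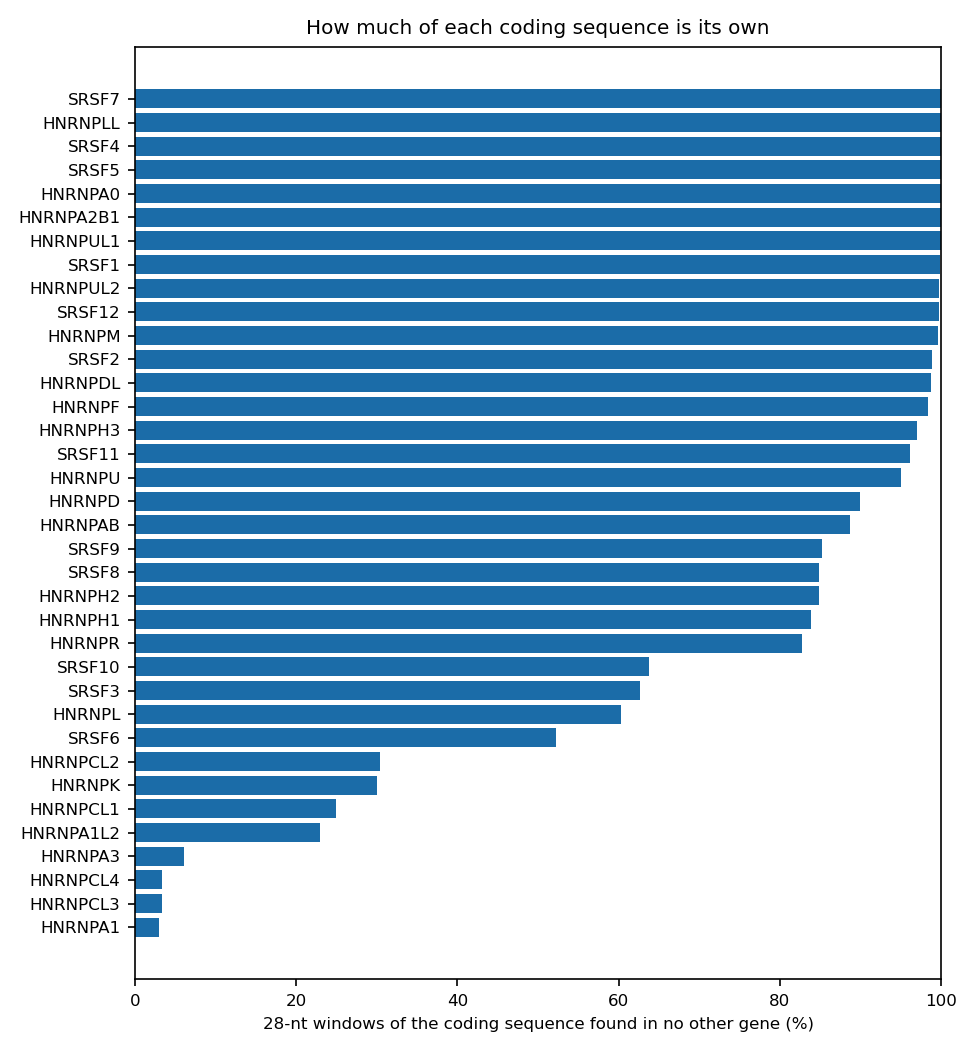
Share of the 28-nt windows of each coding sequence (horizontal axis, %) that occur in no other annotated gene, for the 36 members. HNRNPA1 and the near-identical HNRNPCL3 and HNRNPCL4 have the fewest windows of their own, and HNRNPA3 follows with 6.04%.

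Levels were compared between genes as normalised CPM (TMM scaling, which sets the libraries to a common composition) per kilobase of coding sequence. HNRNPA2B1, which binds and sorts mRNAs and represses exons, and HNRNPA1 were the most abundant in all 3 lines. In HEK293T they stood at 2178 ± 83.5 and 2165 ± 196 (SD, n = 2) and did not differ beyond their spread. In K562 the values were 2427 ± 25.1 and 2091 ± 98.2 (SD, n = 2), with HNRNPA2B1 higher in both libraries, and in the single HEK293FT library they were 1886 and 1998.

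SRSF3, the smallest SR protein, led the SRSF genes at 1228 ± 219 normalised CPM per kb in HEK293T, 1626 ± 30.4 in K562 (SD, n = 2 each) and 1715 in HEK293FT. HNRNPK, a poly(C) binding protein, came next among the hnRNPs of HEK293T with 1208 ± 14.3, and its libraries overlapped those of SRSF3. HNRNPA3 had 956 ± 7.87 in HEK293T and 1145 ± 40.8 in K562. Among neighbours in the order of levels, 27 of 35 pairs overlapped in HEK293T and 12 of 35 in the more deeply sequenced K562 libraries, so the middle of the HEK293T order is not resolved.

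At the low end, SRSF12, a relative of SRSF10, had 1 and 2 counts in K562, 1 and 2 in HEK293T, and 6 in HEK293FT, which is at or under the floor of 3 counts except in HEK293FT, and it was removed by the low-count filter from the undepleted cell line comparison. HNRNPLL, the activation-linked paralog of HNRNPL known from lymphocytes, stood at 39.2 ± 1.93 normalised CPM per kb in HEK293T, 63.8 ± 13.4 in K562 (SD, n = 2 each) and 35.4 in HEK293FT. SRSF4, SRSF8, SRSF11, HNRNPUL1, HNRNPUL2 and the 4 C-like genes had means from 33.0 to 103 normalised CPM per kb in HEK293T and from 47.0 to 113 in K562.

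**Figure D2:**
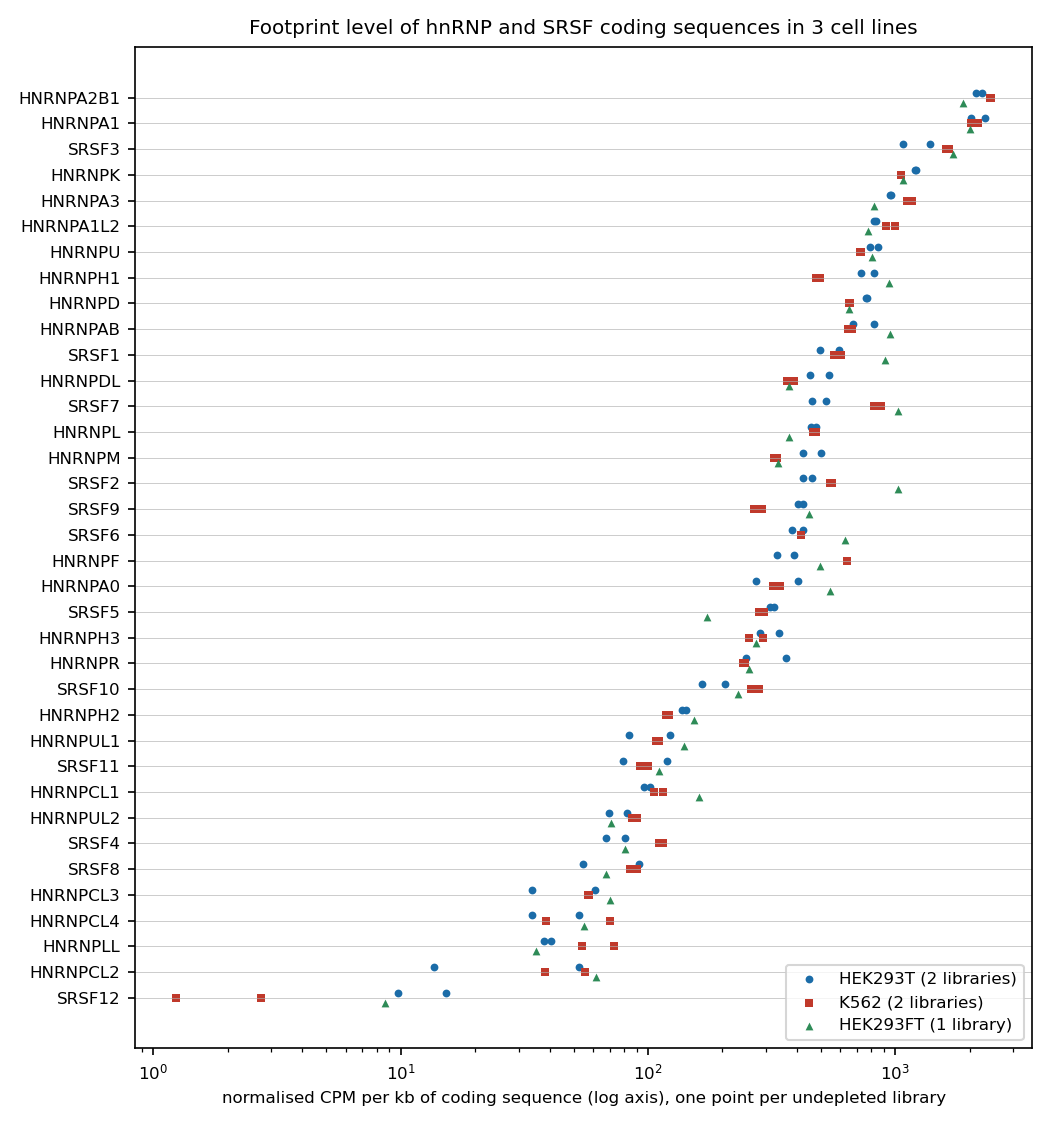
Footprint level of each member in the undepleted libraries, as normalised CPM per kb of coding sequence on a log axis, with one point per library. HNRNPA2B1 and HNRNPA1 lie at the top in every line and SRSF12 at the bottom.

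Paralog use was described by the share that each gene took of its family's counts per kb. With 2 libraries against 2 an exact two-sided permutation test cannot give a p below 0.333, so these shares carry no test. In the H/F family, whose proteins bind runs of G, K562 stood apart from the HEK lines. HNRNPF took 20.4% and 25.3% of the family in the HEK293T libraries, 26.6% in HEK293FT, 41.2% and 42.8% in the K562 kit experiment, and 38.7% and 44.2% in the K562 size experiment. HNRNPH1 went the other way, with 50.3% and 47.1% in HEK293T, 50.6% in HEK293FT, 32.1% and 32.0% in the K562 kit experiment, and 33.7% and 30.3% in the K562 size experiment. No undepleted K562 library overlapped a HEK library for either gene. In undepleted libraries HNRNPH1 was thus the leading member in the HEK lines and HNRNPF in K562, while HNRNPH2 stayed between 7.41% and 11.9%. Nuclease kits did not always keep this order in K562. With NEBNext HNRNPH1 took 45.9% and 35.4%, and HNRNPF 29.4% and 35.3%. Ribo-Zero Plus gave 37.5% for HNRNPH1 and 34.4% for HNRNPF, and 44.0% and 34.3% with formaldehyde. HNRNPF led with oligos (42.4%) and with oligos and formaldehyde (56.2%), and also with FastSelect and riboPools.

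In the SRSF1 and SRSF9 pair, SRSF1, the founding SR protein, took 55.0% and 58.4% in HEK293T, 67.2% in HEK293FT, 67.6% and 67.7% in the K562 kit experiment, and 75.8% and 81.7% in the K562 size experiment. The size experiment therefore lay above the kit experiment in the same line. Its 2 undepleted libraries held few counts, 88 and 20 for SRSF1 and 25 and 4 for SRSF9. In the family of SRSF4, SRSF5 and SRSF6, HEK293FT stood apart for the last pair. SRSF5 held 19.8% there, against 38.7% and 41.0% in HEK293T and 35.8% and 34.8% in the K562 kit experiment, and SRSF6 held 71.0% against 52.9%, 48.7%, 50.2% and 51.5%. The second HEK293FT library, depleted with custom oligos, gave 20.0% for SRSF5 and 69.9% for SRSF6.

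Within the A family, HNRNPA1 took 34.2% and 32.8% in HEK293T, 33.2% in HEK293FT, 29.1% and 31.1% in the K562 kit experiment, and 27.5% and 25.5% in the K562 size experiment. These values rest on counts over the whole coding sequence, most of which is not its own. HNRNPA0, an intronless member, held 9.01% in HEK293FT and between 4.22% and 5.97% in the undepleted libraries of the other lines. In the D family, HNRNPAB held 48.1% in HEK293FT against 40.1% and 34.1% in HEK293T and 38.95% and 39.1% in the K562 kit experiment, and 40.1% and 46.9% in the K562 size experiment. SRSF7 took 32.9% and 25.0% of the SRSF3 and SRSF7 pair in HEK293T, against 34.7% and 33.8% in the K562 kit experiment, 33.9% and 26.1% in the K562 size experiment, and 37.4% in HEK293FT. Of the 4 undepleted K562 libraries, 3 lay above both HEK293T values, and the shallowest lay between them. HNRNPL (86.4% to 93.2%), HNRNPU (72.8% to 83.7%), SRSF2 (82.2% to 93.8%) and SRSF10 (at least 93.1%) were the major members of their families in every undepleted library.

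**Figure D3:**
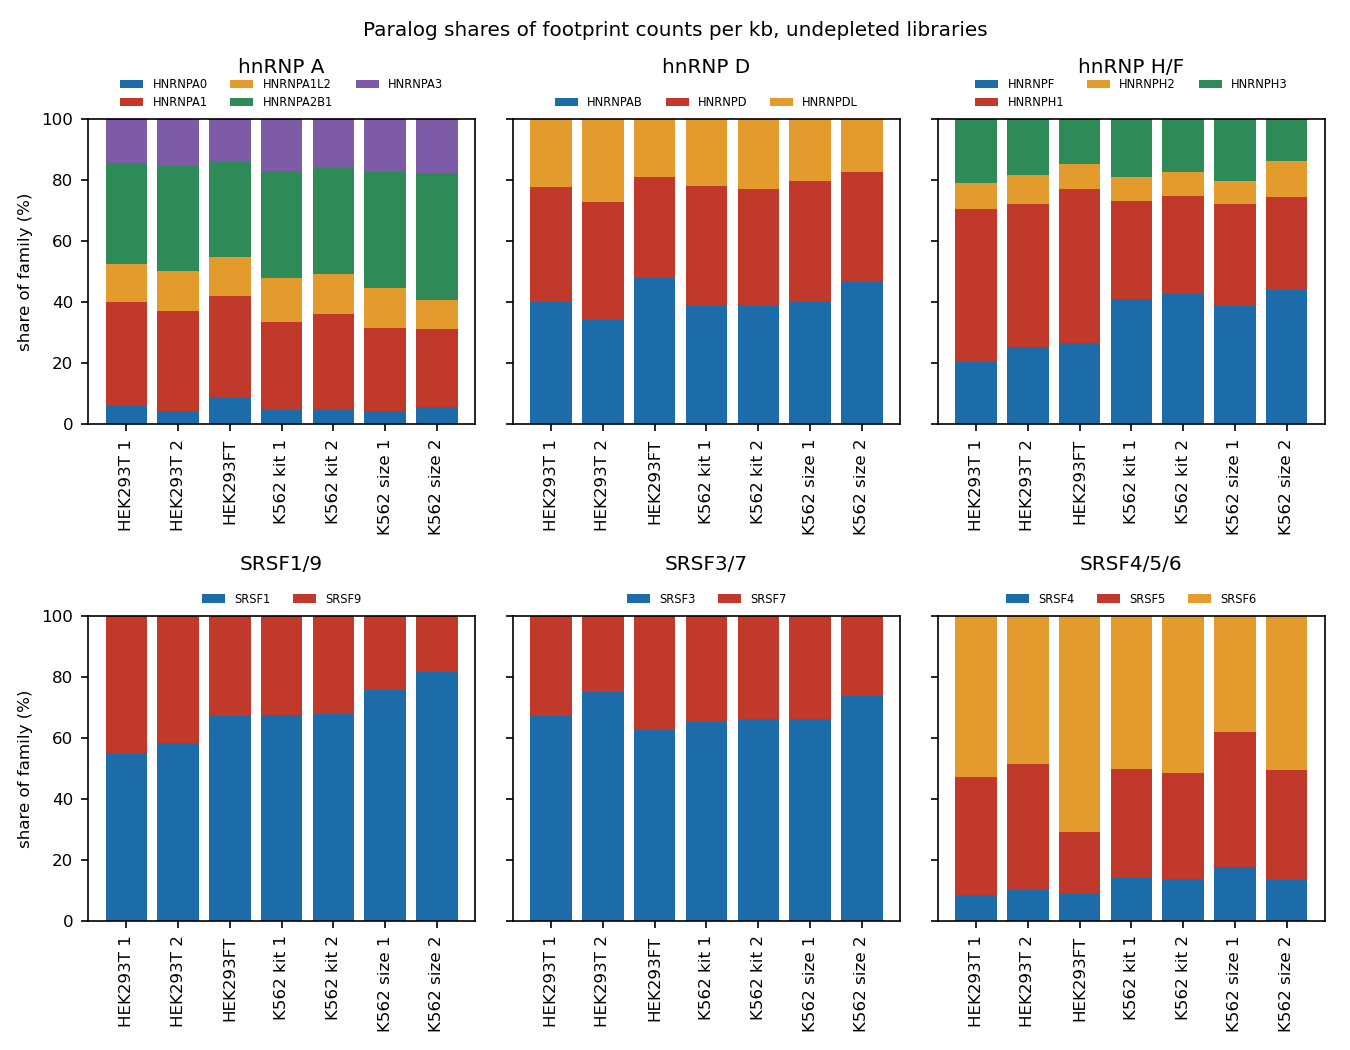
Share of each family's footprint counts per kb (vertical axis, %) taken by its members in the 7 undepleted libraries, one stacked bar per library. HNRNPF is larger than HNRNPH1 in the 4 K562 libraries and smaller in the 3 HEK libraries, and SRSF5 is smallest in HEK293FT.

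Cell lines were then compared gene by gene in the undepleted libraries with edgeR. Between K562 and the HEK lines, line, experiment, growth medium and size selection differ together, and between the HEK lines, line and experiment do, so these cannot be told apart. Of 35 members tested between K562 (kit experiment) and HEK293T, 11 were called at an adjusted p under 0.05, against 35.4% of all 9644 genes. Of the 11, 5 were higher (18.5% of all genes) and 6 lower (16.9%). At a mean of at least 100 CPM, 11 of 29 members were called against 57.2% of genes. The share of members called lay near or below that of all genes. Their median log2 fold change was 0.08, and that of all genes was 0.02.

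HNRNPF had 416 and 486 normalised CPM in HEK293T and 795 and 796 in K562, and HNRNPH1 had 1109 and 979 in HEK293T and 669.9 and 643 in K562. Neither gene's groups overlapped. HNRNPF was 1.75-fold higher (log2 0.80, SE 0.13, edgeR adjusted p = 2.71e-09) and HNRNPH1 fell by 0.66 on the log2 scale (SE 0.10, edgeR adjusted p = 1.79e-09). HNRNPM, which binds GU-rich sequence, had 1101 and 931 normalised CPM in HEK293T and 729 and 709 in K562 (log2 -0.48, SE 0.10, edgeR adjusted p = 1.47e-05). These 3 calls held under every alternative tried.

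SRSF7, an SR protein with a zinc knuckle, had 377 and 330.2 normalised CPM in HEK293T and 627 and 588 in K562 (log2 0.79, SE 0.14, edgeR adjusted p = 3.4e-07). Its paralog SRSF3 had 531 and 685 in HEK293T and 815 and 794 in K562 (log2 0.38, SE 0.11, edgeR adjusted p = 0.0039). Neither was called with the K562 size experiment in place of the kit experiment, where their log2 values were 0.33 and 0.07 and their edgeR adjusted p 0.22 and 0.78. SRSF9 had 269.5 and 282 normalised CPM in HEK293T and 192 and 179 in K562 (log2 -0.57, SE 0.19, edgeR adjusted p = 0.0098). In the size experiment, on 25 and 4 counts in K562, its log2 fold change was -1.25 (SE 0.30, edgeR adjusted p = 0.00033). SRSF3 lost its call without the first HEK293T library (edgeR adjusted p = 0.25) and SRSF9 without the second (edgeR adjusted p = 0.17).

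The other calls were small. HNRNPDL, a D family member, fell by 0.41, HNRNPK by 0.20 and HNRNPU, a nuclear matrix and chromatin-bound hnRNP, by 0.18 on the log2 scale. HNRNPDL lost its call without the second HEK293T library (edgeR adjusted p = 0.35). HNRNPA3 was higher by 0.26 and HNRNPA2B1 by 0.16. With libraries scaled by total counts in place of TMM, which moved the median of all genes from 0.02 to -0.24, HNRNPA2B1 turned to -0.10 and HNRNPA3 to -2.6e-05, and the members split into 2 higher and 11 lower. In the size experiment all 11 called members kept their sign, and 7 of them were called (8 of 32 members tested). Both K562 experiments were set against the same HEK293T libraries, so this agreement is not independent. Without either HEK293T library, or without the first K562 library, 6 members were called.

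Related genes were called in both directions. Among 42 core spliceosome genes, 8 were higher and 8 lower in K562, with PRPF3, a protein of the U4/U6 particle, at log2 1.40 (SE 0.38) and SNRNP70, the U1 protein, at -0.94 (SE 0.16). Of 26 relatives with other names, 7 were higher and 8 lower, with PTBP3, a polypyrimidine tract binding protein, at 2.06 (SE 0.29) and SRRM2, a spliceosome scaffold, at -0.99 (SE 0.12). RALY, a relative of HNRNPC, was higher by 1.48 (SE 0.30). MSI1, a Musashi RNA-binding protein, was among the lower, with 3 and 5 counts in HEK293T and 0 in both K562 libraries, too few for a fold. Of 14 tested kinases, phosphatases and import factors that act on SR proteins, PPP1CA was higher (0.61) and PPP1CC lower (-0.49), and no others were called. Of 10 tested tissue-restricted regulators, 2 were higher, CELF2 (1.62) and MBNL1 (1.54), and 3 were lower. Among the lower, MBNL3 had 1 and 7 counts in HEK293T and ELAVL2 had 0 and 4, with 0 in both K562 libraries for each gene.

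HEK293FT was compared with HEK293T in the same fit, so both comparisons share the HEK293T libraries. Here 12 of 35 members were called, 9 higher (2.75% of all genes) and 3 lower (1.31%), against 4.05% of all genes and 15.0% of genes with a mean of at least 100 CPM, of which 12 of 30 members were called. Members with a mean of at least 100 CPM had a median of 523 CPM, against 188 CPM for all such genes. The part of this abundance in the calls was not tested. Each HEK293FT library was set against the same HEK293T libraries, so results from different HEK293FT libraries are not independent. HEK293FT has 1 undepleted library, whose spread was assumed to be that of the paired libraries. With its custom oligo library in place of the undepleted one, all 12 kept their sign and 11 of them were called. Scaled by total counts, the split was 5 higher and 9 lower, and with the first or the second HEK293T library left out 7 and 5 members were called.

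Of 11 tested SRSF genes 6 were called. SRSF2, which binds exonic enhancers and takes part in transcription elongation, had 308 and 282 normalised CPM in HEK293T and 685 in HEK293FT, and was higher by 1.22 on the log2 scale (SE 0.16, edgeR adjusted p = 1e-12). SRSF7 stood at 734 normalised CPM in HEK293FT (log2 1.06, SE 0.15, edgeR adjusted p = 8.55e-11). SRSF1 had 369.6 and 444 in HEK293T and 682 in HEK293FT (log2 0.73, SE 0.14, edgeR adjusted p = 2.49e-05). These 3 held under every alternative tried. SRSF6 (log2 0.64, SE 0.14) and SRSF3 (log2 0.46, SE 0.12) were also higher, but SRSF6 lost its call without the second HEK293T library (edgeR adjusted p = 0.084) and SRSF3 without the first (edgeR adjusted p = 0.29).

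SRSF5 was the 1 SRSF gene that fell, with 254 and 264 normalised CPM in HEK293T and 142 in HEK293FT (log2 -0.87, SE 0.22, edgeR adjusted p = 0.0044). Without the first HEK293T library its adjusted p was 0.056 and without the second it was 0.21. Among the hnRNPs, HNRNPA0 (log2 0.71), HNRNPF (0.45), HNRNPAB (0.37) and HNRNPH1 (0.30) were higher and HNRNPM (-0.45) and HNRNPDL (-0.43) lower. HNRNPM had 734 normalised CPM in HEK293FT, below both HEK293T values and near those of K562. HNRNPH1 lost its call with the custom oligo library (edgeR adjusted p = 0.27), and all but HNRNPM of these 6 lost it without the second HEK293T library, while HNRNPM lost it without the first.

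For the lists, 3 core spliceosome genes were higher in HEK293FT than in HEK293T and 2 lower of 42, with PUF60 at log2 0.81 (SE 0.17) and SF3B1 at -0.55 (SE 0.14). Of the relatives, SRRM2 (0.58) and TRA2B (0.57), both carrying arginine-serine repeats, were called of 26. None of the 14 SR protein kinases, phosphatases and import factors was called.

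K562 and HEK293FT differed at 20 of 35 members, 8 higher (26.0% of all genes) and 12 lower (26.2%), against 52.1% of all genes. At a mean of at least 100 CPM, 19 of 30 members differed against 71.3% of genes. HNRNPH1 had 669.9 and 643 normalised CPM in K562 and 1277 in HEK293FT (log2 -0.96, SE 0.07, edgeR adjusted p = 3.31e-47), and SRSF2 had 362 and 369 against 685 (log2 -0.91, SE 0.09, edgeR adjusted p = 6.68e-25). SRSF1, SRSF6, SRSF9, HNRNPA0 and HNRNPAB were also lower in K562, at log2 values of -0.64, -0.59, -0.68, -0.72 and -0.53. Higher in K562 were SRSF5 (0.73), HNRNPA3 (0.48), HNRNPA2B1 (0.36), HNRNPF (0.36) and HNRNPL (0.34). These 12 genes kept their calls under every alternative tried, but all of these used the same single HEK293FT library. The other 8 called members were HNRNPLL (0.86), SRSF4 (0.49) and HNRNPA1L2 (0.31), which were higher, and HNRNPCL1 (-0.55), HNRNPH2 (-0.36), HNRNPUL1 (-0.35), SRSF7 (-0.27) and HNRNPU (-0.16), which were lower. Of the lists, 25 of 42 core spliceosome genes were called (12 higher, 13 lower), 18 of 26 relatives (7 higher, 11 lower) and 7 of 14 SR protein kinases, phosphatases and import factors (3 higher, 4 lower).

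**Figure D4:**
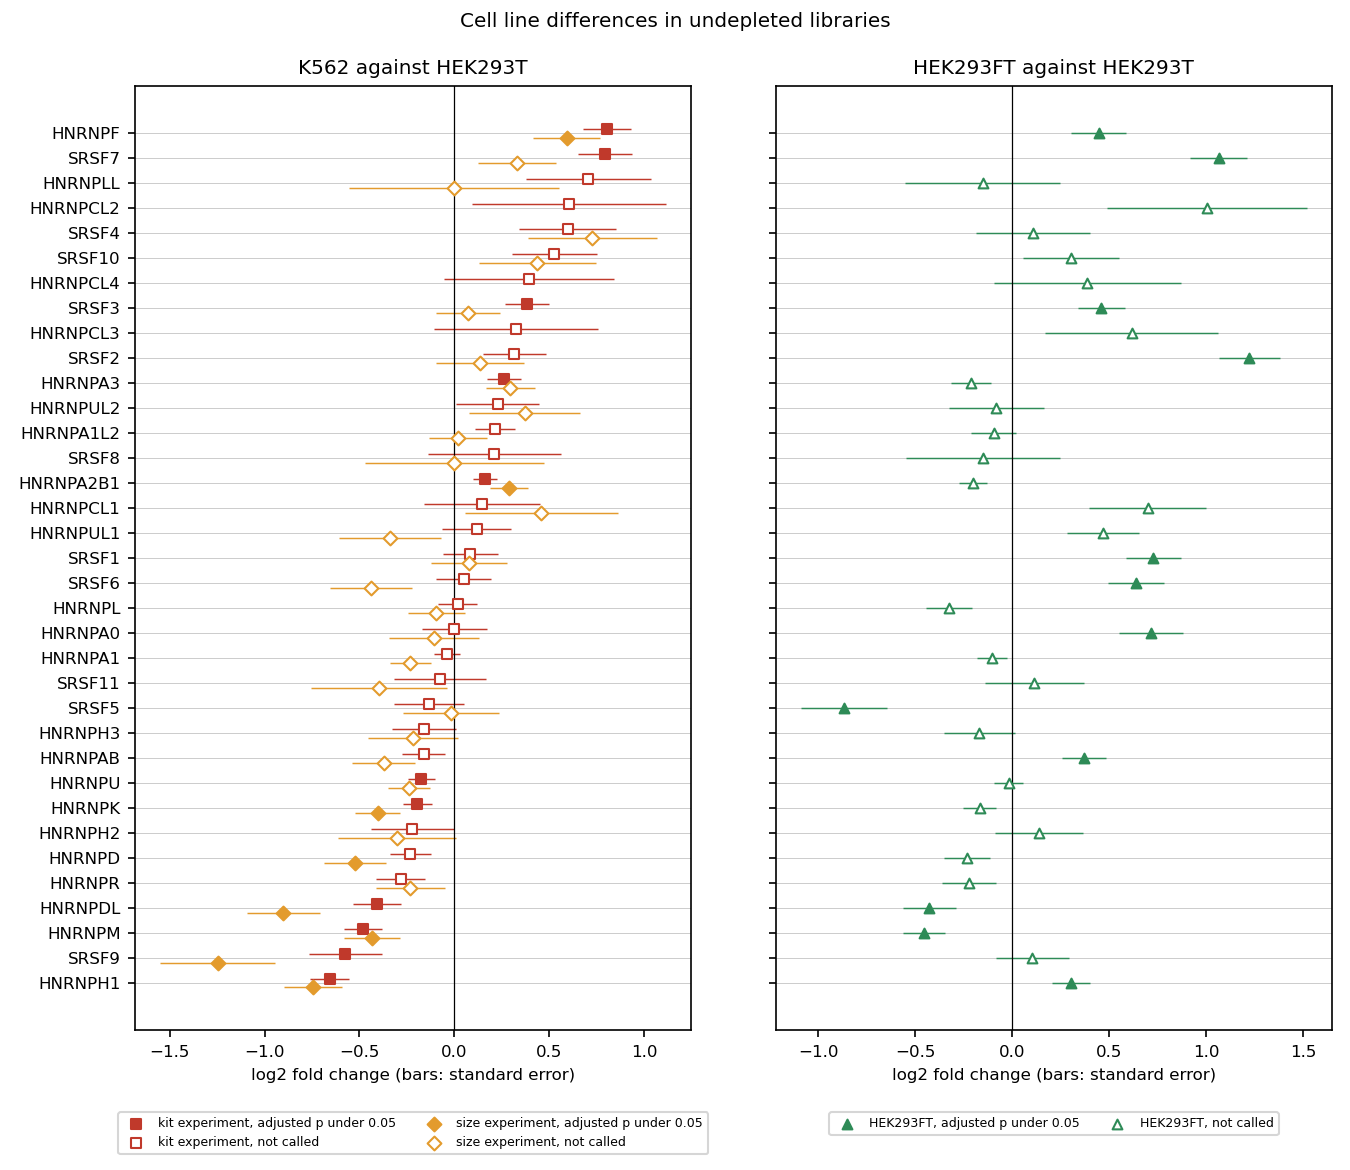
Log2 fold change (horizontal axis, bars show the standard error) of each tested member in undepleted libraries, for K562 against HEK293T with each K562 experiment and for HEK293FT against HEK293T. Filled symbols passed an adjusted p of 0.05, and HNRNPF and HNRNPH1 lie on the same sides of 0 in both K562 experiments. Both experiments were set against the same HEK293T libraries.

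The kits were compared with undepleted libraries of the same experiment, which addresses whether depletion changes the footprint counts of these genes. NEBNext, a nuclease kit, gave the most calls among the replicated kits. In HEK293T 7 of 35 members were called, 6 lower (1.75% of all 4410 genes) and 1 higher (1.5%), against 3.24% of all genes. At a mean of at least 100 CPM, 6 of 29 members were called against 5.93% of genes. The members there had a median of 498 CPM, against 187 CPM for all such genes. The part of this abundance in the calls was not tested. All 7 called members were hnRNP genes, and the SRSF genes had 0 of 11 called by edgeR (SRSF2, SRSF5 and SRSF7 at an unadjusted p under 0.05). Of the called genes HNRNPA1, HNRNPA3, HNRNPK and HNRNPCL2 have uncertain counts. Only 2.99%, 6.04%, 29.97% and 30.4% of their windows are their own. The median log2 fold change of the members was -0.23, and that of all genes was 0.00.

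HNRNPA1 had 2399.6 and 2118 CPM without depletion and 1388 and 1169 CPM with NEBNext. The groups were far apart, and the log2 difference was -0.82 (SE 0.10, edgeR adjusted p = 1.63e-12), while its values with Ribo-Zero Gold (2197 and 2111 CPM) and RiboCop (2189.5 and 2265 CPM) lay near the undepleted ones. HNRNPU had 2233 and 2072 CPM without depletion and 1440.2 and 1517 CPM with NEBNext (log2 -0.51, SE 0.10, edgeR adjusted p = 3.66e-05). These 2 calls held under every alternative tried.

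HNRNPH3, the smallest H/F member, had 383 and 319 CPM undepleted and 188 and 159 CPM with NEBNext (log2 -1.01, SE 0.25, edgeR adjusted p = 0.0034). Its values with Ribo-Zero Gold, 236 and 216 CPM, were also below both undepleted libraries, at a log2 fold change of -0.63 (SE 0.20) that was not called. HNRNPA3 (log2 -0.59, SE 0.13), HNRNPD (-0.50, SE 0.15) and HNRNPK (-0.39, SE 0.10) were lower too, and none of these 4 was called without the second NEBNext library, which left 2 calls. HNRNPD lost its call without any 1 of the 4 libraries. HNRNPCL2 had 6 and 2 counts undepleted and 13 and 20 with NEBNext (log2 1.75, SE 0.55, edgeR adjusted p = 0.049), a call that was lost with total counts, with no filter, and without either NEBNext library or the second undepleted library, and DESeq2 gave it no adjusted p.

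Paralog shares with NEBNext in HEK293T carry no test. HNRNPA1 went from 34.2% and 32.8% of its family to 26.7% and 26.4%, and HNRNPH3 from 20.9% and 18.4% to 11.1% in both libraries. HNRNPF and HNRNPH1 took 27.5% and 26.6%, and 53.5% and 54.3%, so their order was that of undepleted HEK293T libraries. Of the listed relatives, TRA2A was higher (log2 1.39, SE 0.24), and of the core spliceosome genes SF3B6 was higher (1.18) and SF1 lower (-0.67) of 42.

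In the K562 size experiment NEBNext gave 2 calls of 32 members, against 2.72% of all genes, and both were higher (1.75% of all genes, with 0.969% lower). With a mean of at least 100 CPM, 2 of 30 members were called against 4.81% of genes. Each pair of values here gives the narrower and then the wider size range, so its members are not replicates. Each range held 1 library with NEBNext and 1 without, so every p-value of this fit rests on little replication. HNRNPA0 had 273 and 384 CPM undepleted and 517 and 516 CPM with NEBNext (log2 0.82, SE 0.22, edgeR adjusted p = 0.015). SRSF7 had 473 and 427 against 705 and 651 CPM (log2 0.64, SE 0.20, edgeR adjusted p = 0.0497). HNRNPA0 and SRSF7 had only 18 and 20 counts in the undepleted library of the wider range. Neither was called with total counts or DESeq2, and leaving out 1 library ended both calls except without the second NEBNext library. Of the lists, DHX38, a spliceosome helicase, was the 1 core gene called (log2 1.26, SE 0.39). The calls made in HEK293T were not made here: HNRNPA1 had 1866 and 1814 CPM undepleted and 1378 and 1662 CPM with NEBNext (log2 -0.27, SE 0.15, edgeR adjusted p = 0.41), and HNRNPU had 1787 and 1686 against 1371 and 1317 CPM (log2 -0.32, SE 0.15, edgeR adjusted p = 0.29). The difference between the 2 NEBNext effects, tested after seeing these results, was called for 0 of 35 members and 0.296% of 4736 genes. For HNRNPA1 it was 0.56 (SE 0.18, edgeR adjusted p = 0.24).

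The replicated kits that do not use a nuclease gave no call. Ribo-Zero Gold had 0 of 35 members called by edgeR (4 at an unadjusted p under 0.05) against 0.068% of all genes, and RiboCop had 0 of 35 (0 unadjusted) against 0.0%. In K562 FastSelect had 0 of 35 (3 unadjusted) against 0.0208%, riboPools 0 of 35 (2 unadjusted) against 0.0831%, and cold elution 0 of 35 (5 unadjusted) against 0.249%. DESeq2 called 0 members for each of these. Over the 29 members with at least 100 CPM in undepleted libraries, the log2 fold changes ran from -0.15 to 0.08 with FastSelect, from -0.22 to 0.11 with riboPools and from -0.17 to 0.10 with cold elution, with median standard errors of 0.06, 0.06 and 0.05. In HEK293T they ran from -0.63 to 0.15 with Ribo-Zero Gold and from -0.28 to 0.18 with RiboCop, with median standard errors of 0.16 and 0.17, so the HEK293T depth resolved larger changes only. The RiboCop pair differed by no more than sampling noise over 4378 genes (chi-square per degree of freedom 1.03, p = 0.103). Both RiboCop libraries were kept because their labels give different barcodes and their totals are 156200 and 290502 counts. The other replicate pairs ran from 1.04 (undepleted HEK293T) to 1.20 (NEBNext in HEK293T), with 1.05 for undepleted K562 in the kit experiment. The p-values of the cell line comparisons therefore rest on a spread close to counting error.

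Ribo-Zero Plus, a nuclease kit, had single libraries that were assumed to vary like the pairs. Without additions it gave 3 calls of 35 members, against 20.3% of all genes. HNRNPF had 722 and 724 CPM undepleted and 584 with the kit (log2 -0.28, SE 0.06), SRSF6 had 389 and 391.5 against 312 CPM (log2 -0.30, SE 0.08), and HNRNPH1 had 609 and 584 against 688 CPM (log2 0.23, SE 0.06). DESeq2 called none of them, and neither did a fit with oligos and formaldehyde as additive terms.

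The libraries with additions differed more. The oligo library had 9 of 35 members called against 30.2% of all genes, the formaldehyde library 13 against 26.5%, and the library with both 15 against 31.0%. DESeq2 called 1, 9 and 9 members in these libraries. Their all-gene medians were -0.53, -1.07 and -0.70 on the log2 scale, and their totals were 184722, 116742 and 165153 counts, against 1840190 for the kit alone. HNRNPDL had 417 and 448 CPM undepleted, 455 with oligos, 42.8 with formaldehyde and 199.8 with both. The last 2 values rest on 5 and 33 counts, the former near the floor of 3 counts. SRSF1 went from 409 and 383 CPM to 254, 1036 and 624 CPM in the same order, lower in 1 library and higher in the others. HNRNPD was called lower in all 3, with 629.7 and 638 CPM undepleted and 449, 385 and 303 CPM. HNRNPH2 had 149 and 145 CPM undepleted and 108, 103 and 24.2 CPM, on 20, 12 and 4 counts.

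Custom oligos in HEK293FT were compared without a test, as there was 1 library on each side. None of 35 members with a mean of at least 100 counts passed 1.5-fold, against 1.22% of 5225 genes. The lowest was HNRNPCL1 with 98.1 CPM against 139.9 CPM (log2 ratio -0.52, exact 95% interval -0.79 to -0.22) and the highest SRSF8 with 75.0 against 56.6 CPM (0.39, exact 95% interval -0.02 to 0.85), where the intervals cover counting error only. The median log2 ratio was -0.03 for the members and -0.01 for all genes.

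**Figure D5:**
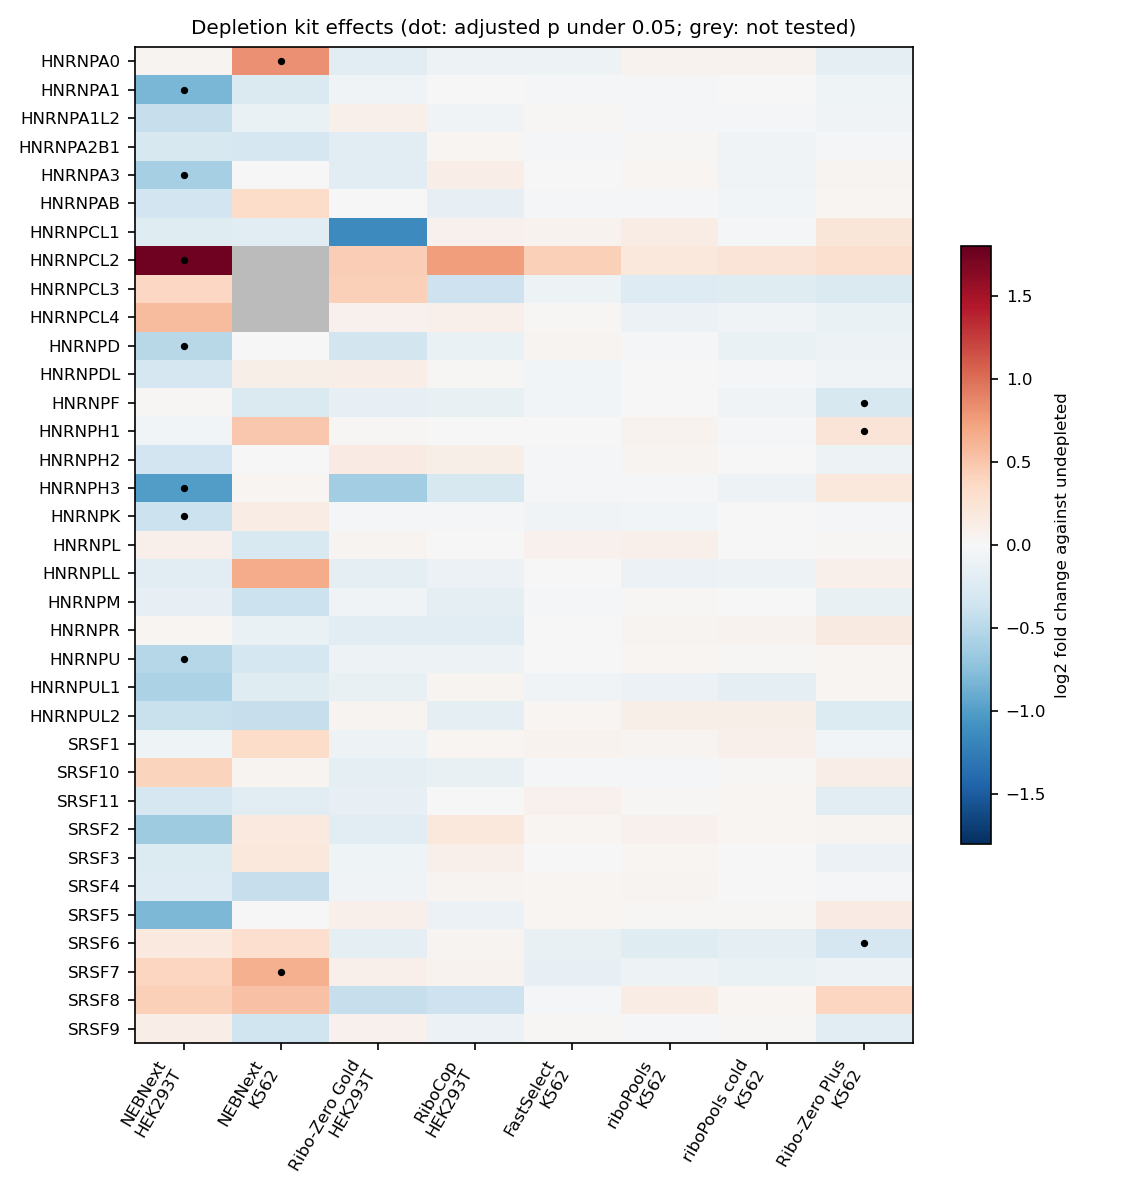
Log2 fold change of each tested member against undepleted libraries for 8 kit comparisons, as colour from blue (lower) to red (higher). Black dots mark an adjusted p under 0.05, of which 7 lie in the NEBNext column of HEK293T, 2 in that of K562 and 3 in that of Ribo-Zero Plus.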

How the data were processed

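In 4 tables the authors deposited unnormalised counts of reads on coding sequences, each row being 1 transcript, per the file headers. The authors' RPM tables were not used. The submitters' processing notes name CASAVA 1.8, STAR and GRCh38 (hg38). The handling of duplicate reads and of reads matching several genes, and the annotation, are not given in the sources used here. The members and gene lists were chosen with earlier results of these data known.

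Members were matched to GENCODE release 29 on GRCh38 for positions, coding lengths and 28-nt windows, which were compared with all its annotated transcripts. This may not be the authors' annotation. Sequences come from its transcripts. Of all transcript identifiers 97.3% matched with the same version.

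The main test was the quasi-likelihood test of edgeR 4.0.16, run in R 4.3.3. Libraries were scaled by TMM and low genes removed by filterByExpr (minimum count 10), with Benjamini-Hochberg adjustment over all genes tested and calls at an adjusted p under 0.05. DESeq2 1.42.0, other scalings, no filter and leaving out libraries were alternatives. The cell line fit held the undepleted libraries of HEK293T, HEK293FT and the K562 kit experiment, and each kit fit held its own experiment, with size range as a term in the K562 size experiment. Normalised CPM are counts scaled to the TMM-adjusted library size, and CPM to the library total. The share of genes called among those with at least 100 CPM, and the test of the difference between NEBNext effects, were added after seeing the data. The HEK293FT pair was compared by log2 ratio of CPM with 0.5 added to each count. Members named with values are those called in a comparison or, for paralog shares, those with at least 5% of their family. From the other lists the 2 largest called changes per direction were eligible. The fits were tested on simulated data. One result for a listed relative and one sequence stretch are not reported here.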

Additional observations from a re-analysis of the deposited data

How the results depend on the processing

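The number of called members depended on the tool and on single libraries. DESeq2 called 7 members for K562 against HEK293T, 13 for K562 against HEK293FT, 4 for NEBNext in HEK293T, 0 for NEBNext in K562 and 0 for Ribo-Zero Plus, where the additive fit also gave 0. Over all genes DESeq2 called 237 in place of 391 for HEK293FT against HEK293T, 3000 in place of 5029 for K562 against HEK293FT, 58 in place of 143 for NEBNext in HEK293T, 16 in place of 101 for NEBNext in K562, and 36 in place of 1950 for Ribo-Zero Plus, where the additive fit called 231. NEBNext in K562 gave 0 with total counts and 1 without a filter. Leaving out 1 library at a time gave 6 to 9 members for K562 against HEK293T, 5 to 7 for HEK293FT against HEK293T, 15 to 17 for K562 against HEK293FT, 2 to 8 for NEBNext in HEK293T and 0 to 5 for NEBNext in K562, where these fits dropped the size term. Total counts reversed HNRNPA2B1 to -0.1016 and HNRNPA3 to -2.599e-05 in K562 against HEK293T, and no other called member changed sign under any alternative. The cause of these changes was not tested, apart from the fewer samples left. Same-numbered libraries did not deviate together (r between -0.048 and 0.049), and a replicate block gave 11 members for K562 against HEK293T and 8 for NEBNext in HEK293T, with 0 for the other kits it was fitted to.

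Dividing by 28-nt windows found in no other gene, in place of coding length, raised the HNRNPA1 share of its family to 76.7% in HEK293T and 73.0% in K562, by construction, since few windows are its own. The same change gave HNRNPF 39.2% in K562, HNRNPH1 51.8% in HEK293T and 35.0% in K562, SRSF9 47.3% and 36.0%, and SRSF7 20.1% and 24.3%. In the K562 size experiment the mean shares were 26.5% for HNRNPA1, 21.2% for SRSF9 and 30.04% for SRSF7. In these undepleted libraries HNRNPF and HNRNPH1 kept their order between the lines. Low depth in HEK293T limits the comparisons of other lines with HEK293T and the kit comparisons within HEK293T.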
